A study of Mus musculus with 8 samples.

Results

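The antiviral genes that type I interferon induces were followed in macrophages activated in opposite ways. The set was a fixed list of 36 gene symbols, and it held nucleic acid sensors, the OAS and IFIT families, the ISG15 conjugation system, PARP proteins with a partner, other antiviral effectors and a few further interferon-induced genes. Genes were taken by symbol, and where several probe sets carried the same symbol the brightest of them over all arrays stood for the gene. Of the 36 listed genes 33 were measured in this way, out of 18193 genes with a probe set of their own. Oas1g, Ifi44 and Isg15 were not analysed here, because the annotation at hand gave the first pair no probe set and Isg15 one that it shared with another gene.

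Bone marrow-derived macrophages (BMDM) of wild-type C57BL/6J mice were grown with L929 cell supernatant, a source of macrophage colony stimulating factor, and on day 7 were replated without it. M1 macrophages were then stimulated with LPS (100 ng/ml) plus IFN-γ (20 ng/ml), M2 macrophages were given IL-4 (20 ng/ml), and M0 macrophages stayed in media alone. RNA was taken 24 hours later and hybridized to 3 arrays of M1, 2 of M2 and 3 of M0 macrophages. LPS is a bacterial cell wall component sensed by Toll-like receptor 4, IFN-γ is the type II interferon, and IL-4 drives alternative activation. No group received type I interferon, and the age of the mice is not given in the sources used here. According to the labels, replicates of a condition come from different mice, whereas the methods describe a small number of mice with in vitro replicates, so n is a number of arrays throughout and p-values measure the spread between them.

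Type I interferons, such as IFN-β and the IFN-α family, bind the receptor chains Ifnar1 and Ifnar2, and the kinases Jak1 and Tyk2 then phosphorylate Stat2. Stat2 and Irf9 are parts of ISGF3, a factor that binds the interferon-stimulated response element (ISRE) in the promoters of antiviral genes. IFN-γ acts on a different element, the gamma-activated site, and LPS makes macrophages produce IFN-β, while resting macrophages carry a basal level of many antiviral transcripts.

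Intensities are given in units on the linear scale on which the authors deposited them after RMA, a method that makes the distributions of all arrays alike, so a level is relative to the rest of the array. In bulk RNA, a smaller share of cells that carry a transcript and less transcript per cell cannot be told apart. The median probe set of an array lay at 38.9 to 40.4 units, and log2 intensities of arrays of one condition correlated at 0.994 to 0.997. The macrophage markers Csf1r and Lyz2 were bright in every array, at 12341 units or more. The M1 markers Il12b and Il6 and the M2 markers Arg1 and Retnla were highest in the arrays with those labels. Of 8 measured macrophage markers 5 were lower in M2, and their sum was 75999 to 77619 units in M1, 53163 and 56861 in M2 and 78572 to 81228 in M0. Of 7 measured markers of plasmacytoid dendritic cells, specialists in making IFN-α, Ccr9 and Spib lay below the array median in all conditions and Siglech lay at 36.1 to 47.8 units in M1, at 38.9 and 40.8 in M2 and at 41.8 to 48.4 in M0. The sum of the 7 was 2192 to 2776 units in M1, 5373 and 5426 in M2 and 4603 to 5036 in M0, and Cd300c2, lower in M1 by 1.40 log2 units, made up most of it. Cox6a2 of the same list, at 318 to 653 units, was higher in M1 by 0.69 (adjusted p = 0.00415 from limma) and in M2 by 0.75 (adjusted p = 0.00921). The markers of T cells summed to 151 to 167 units in M1, 143 and 165 in M2 and 159 to 171 in M0, and those of NK cells to 118 to 133, 121 and 123, and 113 to 126 units in the same order, with none called. Of 6 fibroblast and stromal markers Dcn and Lum were higher in M1, and the sum of the 6 was 230.1 to 374 units in M1, 188 and 278 in M2 and 164 to 204 in M0. The neutrophil marker Camp was higher in M1 and lower in M2, and the B cell marker Cd79b was lower in M1. Lum and Camp lay below the array median in every array. The part of these markers in the results below was not tested. Differences are log2 differences from limma with their standard error, and a gene is called higher or lower at a Benjamini-Hochberg adjusted p under 0.05 over all 45037 probe sets, whatever its fold.

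The promoters of the members were examined for the ISRE and the gamma-activated site. RefSeq promoter windows of GRCm38.p6, which run from 250 bases before an annotated start to 50 bases after it, were at hand for 26 of the 36 listed genes. They were searched on both strands for an ISRE core, GAAA, any 2 bases and GAAA again, and for the gamma-activated site TTCNNNGAA. The ISRE core occurred in windows of 13 of the 26 genes (50%), against 3.99% of 27025 genes. The gamma-activated site occurred in 6 of the 26 (23.1%), against 9.55% of all genes. A match is a description of the letters, not proof of a site.

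The 250 bases before the start are printed for the members on which the results below turn. Ifit1 and Ifit3 fell far in M2 and each carry a pair of ISRE cores, Rsad2 is the brightest member in M1 and carries 1, Bst2 has overlapping matches to both motifs, and Oasl1 has the largest rise in M1 with neither motif in this window. Capitals mark the motif matches, which may lie on either strand.
Ifit1, chr19:34640639-34640888, plus strand: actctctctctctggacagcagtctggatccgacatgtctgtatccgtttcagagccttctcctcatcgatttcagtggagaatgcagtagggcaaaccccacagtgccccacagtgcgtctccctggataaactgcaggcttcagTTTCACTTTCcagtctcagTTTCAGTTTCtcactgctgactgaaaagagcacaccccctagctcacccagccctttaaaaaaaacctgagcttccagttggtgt
Ifit3, chr19:34583279-34583528, plus strand: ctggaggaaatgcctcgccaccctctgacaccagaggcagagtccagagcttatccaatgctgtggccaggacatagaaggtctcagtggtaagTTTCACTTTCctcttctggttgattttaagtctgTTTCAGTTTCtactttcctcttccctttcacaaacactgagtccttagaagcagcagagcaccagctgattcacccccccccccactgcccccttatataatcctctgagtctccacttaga
Rsad2, chr12:26456453-26456702, minus strand: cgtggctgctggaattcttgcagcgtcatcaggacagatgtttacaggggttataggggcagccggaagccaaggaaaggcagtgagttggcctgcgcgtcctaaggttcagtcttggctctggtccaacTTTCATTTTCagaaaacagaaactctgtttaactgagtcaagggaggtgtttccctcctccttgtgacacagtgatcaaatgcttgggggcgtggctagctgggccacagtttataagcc
Bst2, chr8:71537473-71537722, minus strand: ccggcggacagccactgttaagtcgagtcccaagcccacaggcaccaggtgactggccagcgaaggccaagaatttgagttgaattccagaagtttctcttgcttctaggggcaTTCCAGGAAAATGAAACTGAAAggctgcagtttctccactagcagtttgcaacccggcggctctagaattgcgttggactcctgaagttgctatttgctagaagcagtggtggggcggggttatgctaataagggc
Oasl1, chr5:114922990-114923239, plus strand: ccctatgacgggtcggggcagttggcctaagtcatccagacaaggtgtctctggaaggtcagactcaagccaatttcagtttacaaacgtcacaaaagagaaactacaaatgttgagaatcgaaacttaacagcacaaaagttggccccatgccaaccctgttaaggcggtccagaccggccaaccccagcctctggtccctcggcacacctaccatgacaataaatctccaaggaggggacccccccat
In the Ifit1 window the cores lie at positions -104 to -95 and -85 to -76 from the start, and in the Ifit3 window at -156 to -147 and -122 to -113. The Rsad2 core lies at -120 to -111. In the Bst2 window the gamma-activated site at -136 to -128 overlaps the ISRE core at -130 to -121, which in turn overlaps a further core at -124 to -115.

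Among the 23 measured members with a window, 11 hold an ISRE core and 12 do not. The log2 differences of the 2 sets cover much the same range. Members with a core had a median difference of 0.71 (0.13 to 1.86) for M1 minus M0, and members without one had 0.50 (0.04 to 2.78). For M2 minus M0 the median was -1.73 (-4.93 to -1.06) with a core and -1.85 (-4.65 to -1.25) without. Ifit2, whose difference in M2 was nearly that of Ifit3, has no ISRE core in either of its windows.

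**Figure D1:**
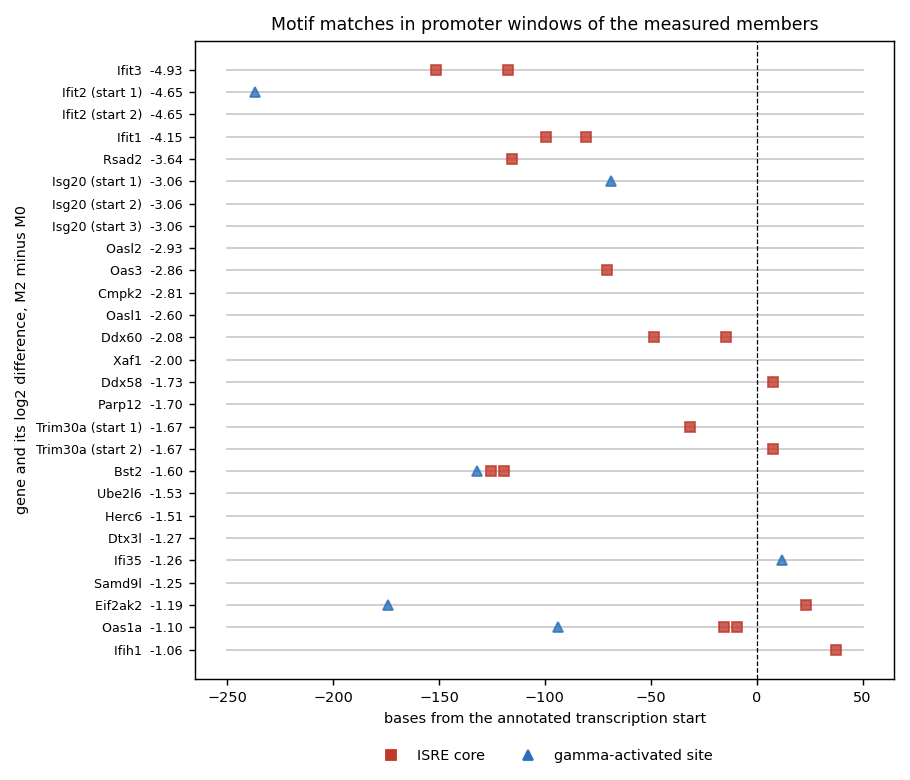
Motif matches in the promoter windows of the measured members, with distance in bases from the annotated start on the horizontal axis and 1 row per window, sorted by the log2 difference of M2 minus M0 printed beside the gene (squares, ISRE core; triangles, gamma-activated site). The 11 genes with an ISRE core lie throughout the order, from Ifit3 at -4.93 to Ifih1 at -1.06.

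In M2 macrophages nearly the whole list fell. Of the 33 measured members 32 were lower in M2 than in M0, none was higher and 1, Usp18, did not pass, against 6.43% of all genes lower and 8.03% higher at the same rule from limma. At an unadjusted p under 0.05 limma counted 33 lower and 0 higher, and the methods' t-test counted 32 and 0. After Benjamini-Hochberg adjustment, which the methods name for arrays, that t-test called 2 lower and 0 higher, so 30 of the 32 calls were lost with it. The median log2 difference of the members was -1.73, with a range of -4.93 to -0.40, while the median over all 18193 genes was 0.01. Both M2 arrays lay below all 3 M0 arrays for 33 of 33 members, a pattern that 19.6% of all genes showed. The fall was at least 2-fold in 31 members, with Mx2 and Usp18 as the exceptions.

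The M1 response was more divided. Here 21 members were higher in M1 than in M0, 2 were lower and 10 did not pass, against 13.7% of all genes higher and 11.5% lower. The median log2 difference was 0.62, with a range of -1.07 to 2.78, against 0.02 over all genes. All 3 M1 arrays lay above all 3 M0 arrays for 21 members, a pattern that 21.8% of all genes showed, and below them for 2, while the arrays of the other 10 overlapped. The rise was at least 2-fold in 11 members. The methods' t-test after adjustment called 13 higher and 2 lower in M1.

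Both comparisons share the same M0 arrays. In the direct comparison of M1 with M2 those arrays do not enter the difference, but they enter the error, since all arrays were fitted together. All 33 members were higher in M1 than in M2, by a median of 2.54 (1.11 to 6.01) on the log2 scale, against 11.5% of all genes higher and 12.3% lower in M1. The methods' t-test after adjustment called 28 of them. Side by side, 20 members were higher in M1 and lower in M2 than in M0. Singly, 13.7% of all genes were higher in M1 and 6.43% lower in M2, and the share with both calls was not counted. Usp18 was higher in M1 and did not pass in M2, Oas2 and Ifi27l2a were lower in both, and 10 members did not pass in M1 and were lower in M2. The last group held Eif2ak2, Oasl2, Ifit3, Parp12, Parp14, Dtx3l, Cmpk2, Samd9l, Ifi35 and Rtp4.

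**Figure D2:**
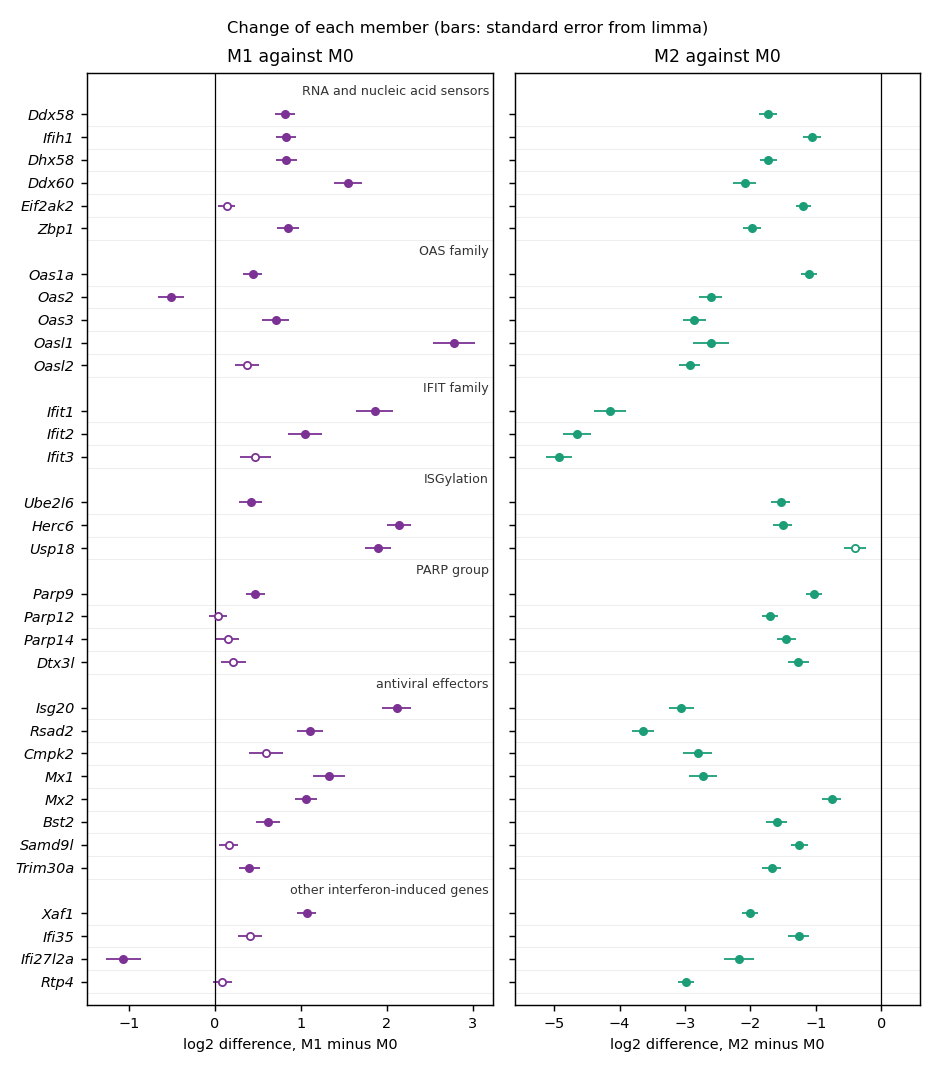
Log2 difference of each measured member, M1 minus M0 on the left and M2 minus M0 on the right, with bars for the standard error from limma, filled points for genes called and open points for genes not called. All points lie below 0 on the right, while on the left they run from -1.07 (Ifi27l2a) to 2.78 (Oasl1).

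The M0 arrays differed among themselves in these genes. M0 replicate 2 was the lowest M0 array for 31 of the 33 members, with a median shift of -0.31 on the log2 scale from the other 2 M0 arrays, while over all genes it was the lowest for 28.7% and its shift was 0.01. The median member stood at 1253, 1084 and 1269 units in the 3 M0 arrays. Without M0 replicate 2, 17 members were higher and 1 lower in M1, and all 33 were lower in M2. Oas1a, Ube2l6, Parp9 and Trim30a were no longer called higher and Oas2 was no longer called lower in M1, and Usp18 became lower in M2 (-0.57, adjusted p = 0.0352 from limma). In M1, replicate 2 was the highest array for 24 of the 33 members, with a median shift of 0.12, against 35.8% of all genes.

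**Figure D3:**
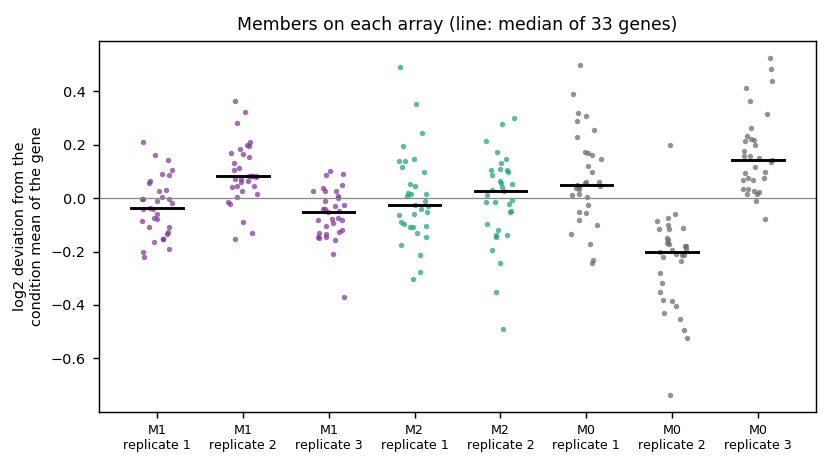
Log2 deviation of each of the 33 members on each array from the mean of its condition, with a line at the median. M0 replicate 2 lies low for 31 of 33 members and M1 replicate 2 high for 24 of 33, while the 2 M2 arrays split 18 to 15.

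The sensors of foreign nucleic acid were higher in M1 for 5 of 6 members and lower in M2 for all 6, with median log2 differences of 0.83 for M1 and -1.72 for M2. Ddx60, a helicase that assists RNA sensing, rose most of the 6 in M1. It stood at 465, 471 and 401 units in M1, at 41.0 and 31.3 in M2 and at 135, 133 and 195 in M0. The 3 conditions did not overlap, and the M2 arrays lay at about the level of the median probe set, which makes the size of that fall and its rank uncertain. The difference was 1.55 for M1 (standard error 0.16, adjusted p = 1.80e-05 from limma) and -2.08 for M2 (0.18, adjusted p = 7.90e-06).

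Ddx58 (RIG-I), Ifih1 (MDA5) and Dhx58 (LGP2), the cytoplasmic RNA helicases of one family, were alike in M1, with differences of 0.82, 0.83 and 0.83. In M2 their differences were -1.73, -1.06 and -1.72, and Ifih1 kept the most signal, at 443 and 511 units in M2 against 973, 892 and 1119 in M0. Ddx58 had 1668, 1704 and 1530.3 units in M1, 264 and 298 in M2 and 928.7, 796 and 1078 in M0. Zbp1, a sensor of Z-form nucleic acid that can trigger cell death, had 1626, 1719.9 and 1673 units in M1, 238 and 235 in M2 and 1042, 744 and 1031 in M0. All of these were called in both comparisons with their brightest probe set, and there no M1 or M2 array overlapped with M0. A dimmer probe set of Ddx58 and 1 of Dhx58 did not pass in M1 or in M2. Their M2 differences were -0.41 and -0.07 (adjusted p = 0.0737 and 0.833 from limma). A further probe set of each of Ddx58 and Dhx58 was called higher in M1 and lower in M2. Eif2ak2 (PKR), the kinase that halts translation on double-stranded RNA, was the sensor that did not pass in M1. It had 291, 300.3 and 283 units in M1, 114 and 119 in M2 and 251, 252 and 296 in M0. Its M1 and M0 arrays overlapped (0.13, standard error 0.10, adjusted p = 0.441 from limma), and its fall in M2 was -1.19 (0.11, adjusted p = 1.97e-05). A dimmer probe set of Eif2ak2 was called higher in M1, at 0.52 (adjusted p = 0.0364 from limma, and 0.149 without M0 replicate 2), with overlapping arrays. Another dimmer probe set of Eif2ak2 did not pass in M1 (0.07, adjusted p = 0.804).

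The OAS family held the largest rise of the list, and in M1 3 of its 5 members were higher, 1 was lower and 1 did not pass. Oas proteins make short adenylate chains that activate RNase L, and Oasl1, which lacks that activity, is known in the mouse as an inhibitor of Irf7 translation. Oasl1 had 6584, 5514 and 6337 units in M1, 133 and 163 in M2 and 1064, 536 and 1248 in M0. No other member rose as far. The log2 difference was 2.78 in M1, a 6.86-fold rise (standard error 0.24, adjusted p = 5.33e-06 from limma), and -2.60 in M2 (0.27, adjusted p = 4.64e-05). M0 replicate 2 was the lowest of all M0 arrays here, and without it the M1 difference was 2.41.

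Oas2 went the other way in M1. It had 826, 893 and 831 units in M1, 254 and 156 in M2 and 1253, 1117 and 1269 in M0, so the conditions did not overlap and M0 was the highest of the 3. The difference in M1 was -0.51 (standard error 0.15, adjusted p = 0.0318 from limma), a call that was lost on leaving out any single M1 or M0 array, with adjusted p = 0.0513 without M0 replicate 2. In M2 the difference was -2.61 (0.17, adjusted p = 9.64e-07). Oas3, the neighbour of Oas2 on chromosome 5, had 1921, 1518 and 1572 units in M1, 152 and 129 in M2 and 1125, 781 and 1195 in M0. It was higher in M1 by 0.71 (0.16, adjusted p = 0.00652) and lower in M2 by 2.86 log2 units.

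Oas1a was the brightest of the family and the one that fell least in M2. It had 7112, 7924 and 7435 units in M1, 2840.3 and 2319.9 in M2 and 5893, 5200.3 and 5472 in M0. The M1 difference of 0.44 (standard error 0.11) had an adjusted p of 0.0113 from limma, and 0.0607 without M0 replicate 2, and the M2 difference was -1.10. Oasl2, the neighbour of Oasl1, had 4716, 5384 and 3425 units in M1, 457 and 444 in M2 and 3529.7, 3279.8 and 3455 in M0. One M1 array lay within the M0 range, and the M1 difference of 0.37 (0.14) did not pass (adjusted p = 0.0963), while the M2 difference of -2.93 was close to that of Oas3. The Oas genes are close copies of one another, so how far each probe set reads a single gene is uncertain.

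The IFIT family had the deepest falls of the list. Ifit proteins bind viral RNA and block its translation, and the 3 genes lie in a cluster on chromosome 19. Ifit1 had 2931, 3348 and 3222 units in M1, 39.9 and 60.6 in M2 and 1234, 606 and 888 in M0. Its levels in M2 were near the median probe set of an array, and its difference was 1.86 in M1 (standard error 0.22, adjusted p = 6.25e-05 from limma) and -4.15 in M2 (0.25, adjusted p = 4.16e-07). Between M1 and M2 it differed by 6.01, and Ifit2 by 5.70, an order that turned with intensities under 64 units set to 64 (5.63 for Ifit1).

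Ifit2 had 4392, 3692 and 3730.2 units in M1, 66.9 and 85.2 in M2 and 1972, 1348 and 2571 in M0. Its arrays did not overlap between conditions, and its difference was 1.05 in M1 (0.19, adjusted p = 0.00181 from limma) and -4.65 in M2 (0.22, adjusted p = 6.00e-08). Ifit3 had 2788, 3172 and 2553 units in M1, 73.8 and 60.8 in M2 and 2064, 1515 and 2717 in M0. Its fall in M2 was the largest of the members except without M2 replicate 2 (where Ifit2 had -4.83 and Ifit3 -4.79), at 4.93 log2 units or 30.4-fold (standard error 0.20, adjusted p = 1.89e-08 from limma). The M1 arrays of Ifit3 overlapped with those of M0 and the difference of 0.47 (0.18) did not pass (adjusted p = 0.0949). Ifit3 has a near-identical neighbouring copy, and its probe set may read both.

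In the ISG15 conjugation system, a pathway that attaches a ubiquitin-like tag to proteins, all 3 measured members were higher in M1. Herc6, the ligase of the mouse, had 2084, 1869 and 1727 units in M1, 156 and 145 in M2 and 389, 378 and 531 in M0. Its difference of 2.14 in M1 (standard error 0.14, adjusted p = 3.57e-07 from limma) was close to that of Isg20, and in M2 it was -1.51 (0.15, adjusted p = 3.41e-05). Its 3 other probe sets were also called higher in M1 and lower in M2. Ube2l6, the conjugating enzyme, had 221, 219 and 187 units in M1, 59.5 and 49.1 in M2 and 158, 135 and 179 in M0. It rose less, by 0.41 (0.13, adjusted p = 0.0392, and 0.186 without M0 replicate 2), and fell by 1.53 log2 units in M2.

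Usp18, which removes the tag and also blocks signaling at Ifnar2, was the member with the least fall in M2. It had 4100.1, 4857 and 4882 units in M1, 915 and 952 in M2 and 1531, 963 and 1260.0 in M0. The M1 arrays stood far above the rest, at 1.90 (standard error 0.15, adjusted p = 2.35e-06 from limma). Both M2 arrays lay below every M0 array, the lowest of which was only slightly higher, and the difference of -0.40 (0.17) did not pass (adjusted p = 0.169).

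The PARP proteins and Dtx3l changed least in M1. Parp12 and Parp14 add single ADP-ribose groups to proteins, and Parp9 forms a complex with the ubiquitin ligase Dtx3l, whose gene lies beside it and beside Parp14 on chromosome 16. Of the 4 members 1 was higher in M1 and 3 did not pass, with a median of 0.18, and all 4 were lower in M2, with a median of -1.36. Parp9 had 1537, 1600.3 and 1741 units in M1, 556 and 597 in M2 and 1093, 1084 and 1361 in M0. It was called at 0.47 in M1 (standard error 0.11, adjusted p = 0.0101 from limma, and 0.0581 without M0 replicate 2) and at -1.02 in M2 (0.13, adjusted p = 1.89e-04). Parp12 had 1963, 2023 and 1892 units in M1, 565 and 613 in M2 and 1959, 1694 and 2094 in M0. Its M1 arrays lay within the range of M0, with a difference of 0.04 (0.11, adjusted p = 0.872), and its M2 difference was the largest of the group, at -1.70 (0.12, adjusted p = 1.58e-06). Dtx3l and Parp14 had differences of 0.21 and 0.15 in M1, which did not pass, and of -1.27 and -1.45 in M2.

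Among 8 other antiviral effectors 6 were higher in M1 and all 8 were lower in M2, with medians of 0.84 and -2.20. Isg20, an exonuclease that degrades RNA, had 2063, 2406 and 1917 units in M1, 59.3 and 57.9 in M2 and 639.8, 368 and 493 in M0. It was the effector with the largest rise, at 2.12 (standard error 0.17, adjusted p = 2.53e-06 from limma), and it fell by 3.06 log2 units in M2 (0.19, adjusted p = 6.09e-07). Rsad2 (viperin), which makes a nucleotide that stops viral polymerases, had 9529, 10894 and 10466 units in M1, 356 and 413 in M2 and 5595, 3656 and 5319.9 in M0. It had the largest fall of the effectors, -3.64 (0.17, adjusted p = 5.47e-08), and a rise of 1.11 in M1 (0.15, adjusted p = 1.85e-04). Its 2 other probe sets differed by 1.34 and 1.64 in M1 and by -3.83 and -3.55 in M2.

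Cmpk2, a nucleotide kinase encoded next to Rsad2, was less clear in M1 than its neighbour. It had 903, 1314 and 979 units in M1, 106 and 93.0 in M2 and 588, 572 and 1002 in M0. One M0 array lay within the M1 range, and the difference of 0.59 (standard error 0.20) did not pass (adjusted p = 0.059 from limma), while in M2 it was -2.81 (0.23, adjusted p = 5.32e-06).

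Mx1 and Mx2 encode GTPases that trap viral particles, and in the C57BL/6J annotation used here both are listed as transcribed pseudogenes. Their transcripts were nonetheless measured. Mx1 had 1214, 1737 and 1170.4 units in M1, 82.2 and 80.4 in M2 and 667, 394 and 595 in M0, with differences of 1.33 (standard error 0.19, adjusted p = 2.88e-04 from limma) and -2.73 (0.21, adjusted p = 4.33e-06). Mx2 had 271, 342 and 279 units in M1, 76.5 and 91.7 in M2 and 154, 122 and 151 in M0. Its rise of 1.06 (0.13, adjusted p = 8.84e-05) was close to that of Rsad2, but its fall of 0.76 log2 units in M2 (0.15, adjusted p = 0.00474) was the smallest of the effectors and was not called without M2 replicate 1.

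Bst2 (tetherin), a membrane protein that holds budding virus on the cell, had 8884, 8918 and 7851 units in M1, 2165 and 1547 in M2 and 6249, 4848 and 5633 in M0. Both differences were called, at 0.62 in M1 (standard error 0.14, adjusted p = 0.00627 from limma) and -1.60 in M2 (0.16, adjusted p = 2.50e-05). Trim30a, a TRIM ubiquitin ligase, had 4657, 4749 and 4583 units in M1, 955 and 1283 in M2 and 3689, 3119 and 3835 in M0. The M1 rise of 0.40 (0.13) stood near the threshold (adjusted p = 0.0402, and 0.186 without M0 replicate 2), and the M2 fall was clear, at -1.67. A dimmer probe set of Trim30a did not pass in M1 (0.29, adjusted p = 0.0916 from limma). Samd9l, a restriction factor of poxviruses, had the smallest M1 difference of the effectors. Its levels were 1285, 1634 and 1505 units in M1, 572 and 536 in M2 and 1356, 1213 and 1384 in M0, with differences of 0.16 (0.11, adjusted p = 0.415) and -1.25 (0.13, adjusted p = 3.41e-05).

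The 4 remaining interferon-induced genes did not move as a group in M1. Xaf1, which binds an inhibitor of apoptosis, had 4248, 4664 and 3885 units in M1, 493 and 523 in M2 and 2118, 1822 and 2172 in M0. Its differences were 1.07 in M1 (standard error 0.11, adjusted p = 1.95e-05 from limma) and -2.0 in M2 (0.12, adjusted p = 5.64e-07). Another probe set of Xaf1, below the array median in every condition, did not pass in M1 or in M2 (0.10 and -0.15). Ifi27l2a, a small hydrophobic protein, had 2460.4, 2940.3 and 2467 units in M1, 1705 and 865 in M2 and 4653, 6282 and 5596 in M0. It was lower in both conditions, by 1.07 log2 units in M1 (0.21, adjusted p = 0.00239) and by 2.17 log2 units in M2 (0.23, adjusted p = 5.22e-05), and it was the single member for which M0 replicate 2 was the highest M0 array. Its difference between M1 and M2 was 1.11 (0.23, adjusted p = 0.00426). It was 1.596 without M2 replicate 1, and the lowest value over the alternative settings was 0.616. The M1 against M2 call of Ifi27l2a was lost with the methods' t-test, adjusted or not, and with intensities under 64 units set to 64.

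The arrays of Rtp4, a receptor chaperone, overlapped between M1 and M0. It had 4192, 5004 and 3982 units in M1, 488 and 557 in M2 and 4215, 3838 and 4311 in M0, with a difference of 0.09 in M1 (standard error 0.11, adjusted p = 0.700 from limma) and -2.98 in M2 (0.13, adjusted p = 2.59e-08). Ifi35, which pairs with the protein Nmi, had 3732, 4756 and 4015 units in M1, 1247 and 1359.6 in M2 and 3814, 2697 and 2959 in M0. Its M1 and M0 arrays overlapped (0.41, 0.14, adjusted p = 0.058). The 2 other probe sets of Ifi35 were called higher at 0.51 and 0.46, but not without M0 replicate 2 (adjusted p = 0.062 and 0.124 from limma). In M2 the difference of the brightest Ifi35 probe set was -1.26 (0.16, adjusted p = 1.79e-04).

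**Figure D4:**
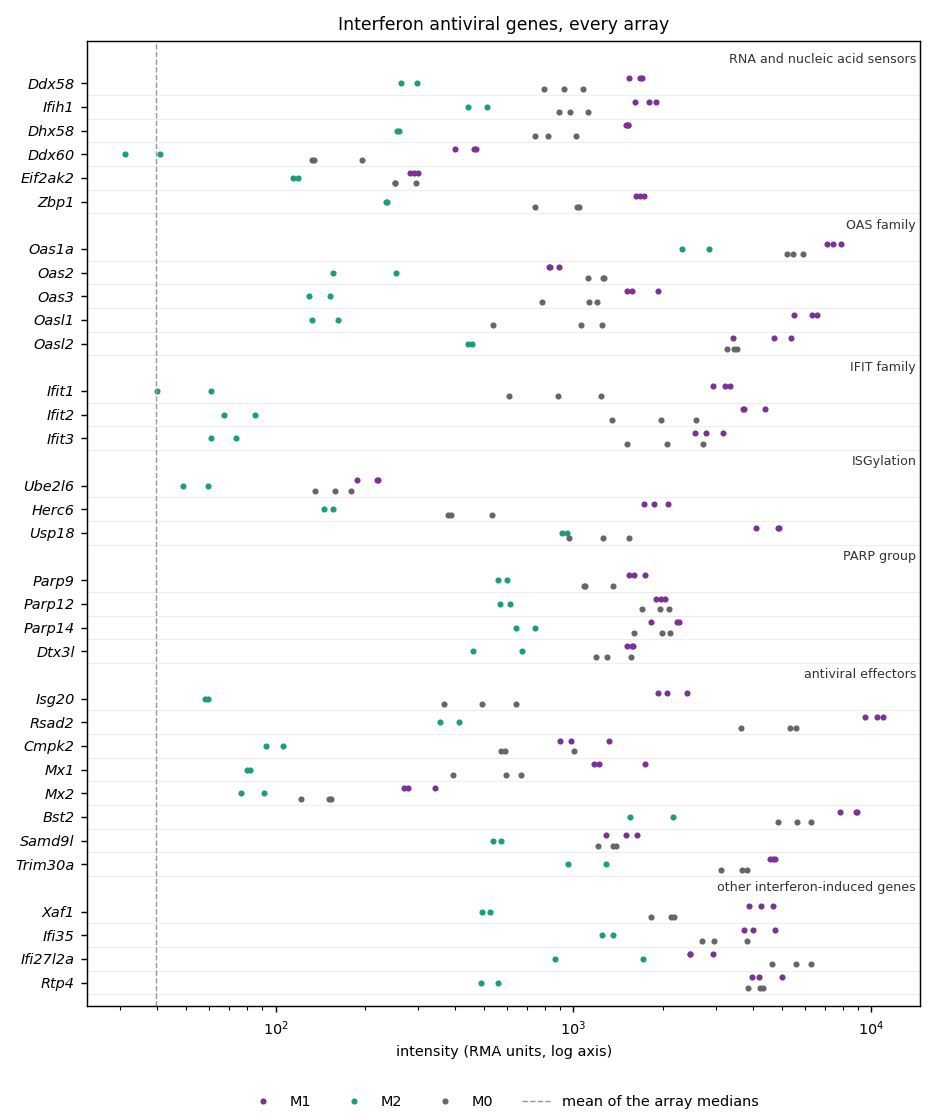
Intensity of each measured member in units on a log axis, 1 point per array, with M1, M2 and M0 drawn from top to bottom within each gene and a dashed line at the mean of the array medians. The M2 points lie left of the M0 points for all 33 members, and Ddx60 and Ifit1 reach the dashed line in M2.

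The genes that make, sense and relay the interferon signal were read from further lists. Of 13 type I and III interferon genes 7 were measured, and none was called in either comparison by limma. At an unadjusted p under 0.05 limma counted 2 higher in M1 and 0 lower, and 0 in either direction in M2, and the methods' t-test after adjustment counted 0. Ifnb1, the gene of IFN-β, stood at 21.4, 22.3 and 35.9 units in M1, 19.5 and 23.2 in M2 and 23.3, 22.5 and 20.2 in M0. In every condition 5 of the 7 ligands, Ifnb1 among them, lay below the median probe set of an array, so no statement on a change at such levels can be made.

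The receptor chains were higher in M1. Ifnar1 had 1628, 1187 and 1499.9 units in M1, 941 and 903 in M2 and 636, 714 and 716 in M0. Ifnar2 had 6446, 5650.5 and 5948 units in M1, 2310.0 and 2475 in M2 and 3028, 2969.9 and 3099 in M0. Their differences in M1 were 1.05 and 0.99 (adjusted p = 5.73e-05 and 1.24e-05 from limma), and Jak1 was higher by 0.52 (adjusted p = 0.00682), while Tyk2 did not pass (0.19, adjusted p = 0.292). Limma called 3 of these 4 higher in M1, against 13.7% of all genes, and the methods' t-test after adjustment called 2. In M2 limma called 8.03% of all genes higher and 6.43% lower. None of the 4 was called in M2 by limma, where 2 were higher and 1 lower at an unadjusted p under 0.05. Without M1 replicate 2 limma called 2 of them higher in M2.

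Of 5 measured factors of ISGF3 and the IRF group, 4 were higher in M1 and 3 lower in M2 by limma. The shares over all genes were 13.7% and 6.43%. Leaving out any M0 array or M1 replicate 1 or 2 left 3 factors higher in M1. The methods' t-test after adjustment called 2 higher in M1 and 1 lower in M2. Irf7, which drives the transcription of interferon genes, moved in the same directions as most members. It had 7263, 6735 and 7442 units in M1, 372 and 325 in M2 and 4047, 2946 and 4252 in M0, with differences of 0.95 (standard error 0.14, adjusted p = 2.83e-04 from limma) and -3.41 (0.15, adjusted p = 4.08e-08). Stat2 had 909.8, 785 and 997 units in M1, 147 and 173 in M2 and 320.1, 327 and 547 in M0, with differences of 1.21 (adjusted p = 4.32e-04) and -1.27 (adjusted p = 0.00144). Irf9 differed by 0.33 in M1 (adjusted p = 0.0200, and 0.0699 without M0 replicate 2) and by -0.90 in M2 (adjusted p = 8.40e-05). Irf1, a factor that IFN-γ induces, was higher in M1 by 0.53 (adjusted p = 0.00843) and did not pass in M2 (-0.07, adjusted p = 0.839), and Irf3, which is activated by phosphorylation, did not pass in M1 or in M2 (-0.05 and 0.02).

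Of 7 inhibitors of interferon signaling 4 were higher and 1 lower in M1, and 2 were higher and 2 lower in M2 by limma. Over all genes the shares higher and lower were 13.7% and 11.5% in M1 and 8.03% and 6.43% in M2. The methods' t-test after adjustment called 3 higher and 1 lower in M1 and 0 in either direction in M2. Socs1, which blocks Jak kinases, was the inhibitor that departed most from the members in M2. It had 461, 280.2 and 517 units in M1, 612 and 813 in M2 and 51, 50 and 68.3 in M0, with differences of 2.86 in M1 (adjusted p = 1.24e-06 from limma) and 3.66 in M2 (adjusted p = 8.44e-07). Ptpn2, a phosphatase of the pathway, was also higher in both, by 0.38 and 0.83. Socs3 was higher in M1 by 4.02 and did not pass in M2 (-0.70, adjusted p = 0.284), where its arrays stood at 40.5 and 89.9 units against 149, 116 and 54.6 in M0. Trim21 was higher in M1 by 0.57 and lower in M2 by 0.95 log2 units, Ptpn6 was lower in M2 by 1.17 log2 units, and Pias1 was lower in M1 by 0.57 log2 units.

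**Figure D5:**
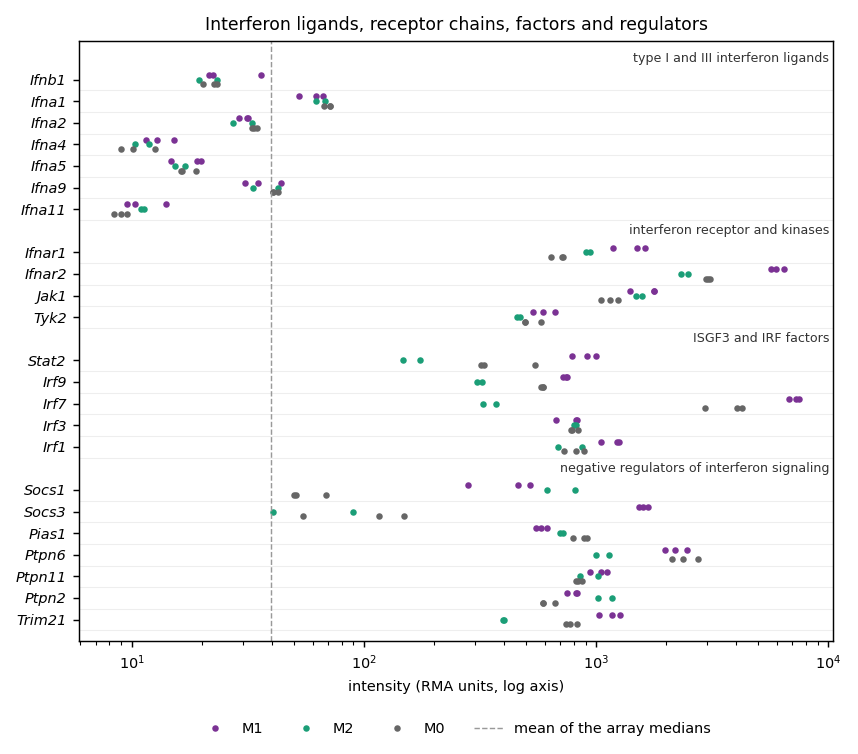
Intensity in units on a log axis of interferon ligands, receptor chains and kinases, factors and inhibitors, 1 point per array, with M1, M2 and M0 from top to bottom within each gene and a dashed line at the mean of the array medians. Irf7 and Stat2 order as M1, M0, M2 from high to low, while Socs1 is higher in M1 and in M2 than in M0.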

How the data were processed

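RNA of BMDM was measured on 8 Affymetrix arrays, 3 of M1, 2 of M2 and 3 of M0 macrophages. Per the submitters' processing notes the authors ran RMA (no version given), and they deposited the intensity of 45101 probe sets on a linear scale. The steps from there on are described here. The log2 of each intensity was taken without a pseudocount, 64 control probe sets were left out, and 45037 were tested with lmFit and eBayes of limma 3.58.1 in R 4.3.3, with the 3 conditions as means and all 8 arrays fitted together (5 residual and 6.95 prior degrees of freedom). The methods name an unpaired t-test, which was an alternative. Array number limits the precision, most of all in M2.

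GEO's platform annotation gives 1 symbol to 34945 probe sets, several to 932 and does not list 9160. The 33 members have 54 probe sets, and 4 list symbols were updated through synonyms of the RefSeq annotation. Members and lists were chosen with earlier results of these data known. All members are named. Those with the largest and smallest difference of each role, or opposed to their role, are given per array, and of the other lists every ligand, receptor, kinase and factor called, and up to 2 rises and 2 falls of long lists. Other probe sets and genes were added to the text with their values in view. The fit was tested on simulated data. Plots used matplotlib 3.10.9 and Python 3.11.15. Raw images were not analysed here.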

Additional observations from a re-analysis of the deposited data

How the results depend on the processing

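Across 21 alternative settings the direction of every member in M2 minus M0 and in M1 minus M2 was kept, and in M1 minus M0 it turned for Parp12 without M0 replicate 2 (-0.0483, in a leave-one-out range up to 0.1046), for Parp14 as the mean of all its probe sets (-0.0653) and for Rtp4 without M1 replicate 2 (-0.0107, in a leave-one-out range up to 0.1541), none of which was called. The methods' t-test with adjustment called 13 members higher in M1 and 2 lower in M2, and without adjustment it called 21 and 32. With intensities under 64 units set to 64, 14 members were higher and 0 lower in M1, 31 lower in M2 and 32 higher in M1 than in M2, and the cause was not tested. At an adjusted p under 0.01 from limma, 17 members were higher and 1 lower in M1. At that threshold 32 were lower in M2 and 33 higher in M1 than in M2. A 2-fold limit left 11 higher and 1 lower in M1. On leaving out each array in turn, 17 to 23 members were higher and 1 to 2 lower in M1, 0 were higher and 31 to 33 lower in M2, and 33 were higher in M1 than in M2. The arrays carry replicate numbers, but no source states that equal numbers share a mouse, and deviations of arrays with equal numbers had correlations of -0.172 to 0.0547 (7 pairs), while arrays with unequal numbers had -0.150 to 0.190 (14 pairs). With a replicate block 19 members were higher and 2 lower in M1, 32 lower in M2 and 33 higher in M1 than in M2, with Ube2l6 and Trim30a no longer called in M1. Levels near the median probe set, as those of Ddx60 and Ifit1 in M2, leave the size of a fall uncertain.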

Other observations

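Of 36 further targets 33 were measured, of which 30 were lower and 1 higher in M2 than in M0, and 14 were higher and 3 lower in M1, with median log2 differences of -1.0 and 0.34. These counts come from limma, and the methods' t-test after adjustment called 2 lower in M2 and 6 higher and 1 lower in M1. Of all genes limma called 6.43% lower and 8.03% higher in M2, and 13.7% higher and 11.5% lower in M1. Calls of lower in M1 were thus no more frequent among the further targets than over all genes. At least 2-fold were 17 of the falls in M2 and 3 of the rises in M1. Without M0 replicate 2, 9 were higher in M1, and without M2 replicate 2, 0 were higher in M2. Ifit1bl1, a gene of the IFIT cluster, had 28.9 and 31.4 units in M2 against 578, 299.8 and 587 in M0, and Ifitm6 had 44.0 and 32.1 units in M2 against 172, 148 and 226 in M0. Their M2 levels lay near or below the median probe set of an array, so the sizes of these falls are uncertain. Phf11d (-2.24) and Helz2 (-2.17) fell at measurable M2 levels, 255 and 204 units for Phf11d, and the single rise was that of N4bp1, a ribonuclease, at 0.59. In M1 the largest rises were N4bp1 at 1.19 and Phf11d at 1.16, and the largest falls Ifitm6 at -1.15 and Pml, the organizer of nuclear bodies, at -0.51. Ifitm3 and Ly6e, which block the entry of viruses, were bright and did not pass in M1 (0.02 and -0.06), while in M2 they were lower by 1.26 and 1.97 log2 units.

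Of 11 measured adaptors and further sensors of nucleic acid, 1 was higher and 2 were lower in M1, shares near the 13.7% and 11.5% of all genes, and 0 were higher and 6 lower in M2 by limma, against 8.03% and 6.43% of all genes, with 0 higher and 7 lower at an unadjusted p under 0.05 and 0 higher and 1 lower by the methods' t-test after adjustment. Tlr7, which senses single-stranded RNA, was lower in both, with 573, 568 and 560.3 units in M1, 478 and 409 in M2 and 982, 934 and 1069 in M0. Sting1, the adaptor of cytoplasmic DNA sensing, was lower in M1 by 0.60 log2 units (adjusted p = 0.0015 from limma) and did not pass in M2 (0.02, adjusted p = 0.957). Zc3hav1, which directs viral RNA to decay, was higher in M1 by 0.62, and the kinase Ikbke had the largest fall in M2, at -1.65, followed by Tlr3, a sensor of double-stranded RNA, at -1.21. Without M2 replicate 1 the count lower in M2 was 3, and without M1 replicate 3 the count higher in M1 was 2.

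Of 12 measured genes known for induction by IFN-γ, 7 were higher and 1 lower in M1 by limma. In M2, 2 were higher and 7 lower. Over all genes the shares higher and lower were 13.7% and 11.5% in M1 and 8.03% and 6.43% in M2. The methods' t-test after adjustment called 6 higher and 1 lower in M1 and 0 in either direction in M2. Leaving out M0 replicate 2 or M2 replicate 2 left 1 higher in M2, leaving out M2 replicate 1 gave 3, and leaving out M0 replicate 3 or M1 replicate 2 left 0 lower in M1. The chemokine Cxcl10, a target of both interferon types, had 2901, 3359 and 3628 units in M1, 34.7 and 45.5 in M2 and 539.7, 287 and 418 in M0. Cxcl9 had 4259, 4373 and 3195 units in M1 against 45.0, 33.3 and 35.8 in M0, and the GTPase Iigp1 had 32.9 and 28.6 units in M2 against 316, 237 and 348 in M0. For both genes the lower condition lay near or below the median probe set, so the size of the change is uncertain. The GTPase Gbp2 was higher in both, by 1.88 in M1 and 1.02 in M2. Its M2 call had adjusted p = 0.0230 from limma, and 0.0828 without M0 replicate 2. Gbp2 had 2448 and 4872 units in M2 and 2150, 1275 and 1785 in M0. Ciita, the activator of MHC class II genes, had 23.9 to 26.6 units in M1, 68.7 and 88.2 in M2 and 31.9 to 36.8 in M0. Ciita is the 1 gene counted as lower in M1, but its M1 and M0 levels lay below the median probe set, so no statement on a change between them can be made.

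M1 replicate 2 was the highest M1 array for 24 of the 33 antiviral members and the lowest M1 array for all 5 measured M1 markers. Il6 had 2875, 753 and 3416 units in the 3 M1 arrays and Ptgs2 had 1726, 489 and 1420. M0 replicate 2 was the lowest M0 array for 27 of the 33 further antiviral targets and for 11 of the 12 genes induced by IFN-γ.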
